A study of Brassica napus with 12 samples.

Results

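Among the places where *Brassica napus* chromatin carried H3K4me3 in every tissue examined, 998 regions had their highest signal in seedlings. They are 2.63% of the 37889 H3K4me3 regions with a peak in all 6 libraries of the mark, and 51928 regions were called in at least 1 library. The members were chosen from the pileup, the number of sequenced fragments covering the summit of a peak. The highest pileup in a region was divided by the library's median over the 37889 regions, which was 78 and 101 fragments for the seedling libraries, 104 and 105 for flower bud and 138 and 104 for silique. The result is called the scaled value here. A region is a member if its lower seedling value is at least 1.5 times the highest of the 4 other values, and that quotient is called the ratio. All H3K4me3 values of members below are therefore a description of the choice and carry no test.

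H3K4me3 is trimethylation of histone H3 at lysine 4. In plants it lies just downstream of the starts of transcribed genes and generally rises with their transcription. H3K27me3, trimethylation of lysine 27, is written by Polycomb repressive complex 2 and covers genes that are kept silent, many of them regulators of development. As tissues form, genes can exchange one mark for the other, and in a mixture of cells both can be found at the same place.

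The material was HZ62, a hybrid of oilseed rape, a species that carries an A and a C subgenome, and its genotype is given as WT. Each mark was profiled by chromatin immunoprecipitation and sequencing (ChIP-seq) with 2 libraries from seedlings of 2 weeks (called leaf in the titles), 2 from flower buds under 2 mm (spelled "flower bug" in the tissue field) and 2 from siliques, the seed pods, of 3 to 5 cm. All plants had 16 h of light at 22 °C and 8 h of dark at 18 °C, and the parents named in the design are not analysed here. Whether the libraries of a tissue came from separate plants is not said, so spread between them may be technical. In whole tissue, fewer cells with a mark and less of it per cell cannot be told apart, nor can marks on the same and on different chromosome copies.

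The H3K4me3 libraries held 8609548 to 14339594 fragments and the H3K27me3 libraries 2654588 to 11513204. Library numbers in the titles are lower for the 4 seedling libraries than for the other 8, with a gap between them, so tissue and library numbering cannot be told apart for seedling. Mean fragment size of the H3K4me3 libraries was 236 and 246 bp for seedling, 304 and 310 bp for flower bud, 332 bp for silique replicate 1 and 248 bp for silique replicate 2. The part of fragment size in the H3K4me3 values of members was not tested. No genome or gene models of the build in the files were used. Regions are therefore named by the number that ends the sequence identifier in the files, with 1-based positions, and the tissues could not be checked against marker genes.

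The regions strongest in seedling were ordinary H3K4me3 regions in seedlings and weak ones elsewhere. In seedling their median lay at percentile 59.9 (replicate 1) and 59.2 (replicate 2) of all shared regions, and 626 and 628 of the 998 exceeded the library median. In flower bud the median percentile was 10.9 and 10.5, and in silique 11.6 and 12.7. In these 4 libraries 38 to 46 members exceeded the library median. Median scaled values of members were 1.14 and 1.13 for seedling, 0.471 and 0.457 for flower bud and 0.457 and 0.471 for silique. The middle member was 2.22-fold higher in seedling than in flower bud and 2.22-fold higher than in silique, comparing means of log2 values. Replicates of one tissue differed by a median of 0.11 (seedling), 0.17 (flower bud) and 0.17 (silique) on the log2 scale at these regions. At the other shared regions these differences were 0.138, 0.129 and 0.138. The seedling excess of members was 1.15 over either tissue. Excess and spread both come from the values that chose the members, so they do not show how well the excess would repeat. The lowest pileup of a member in the 4 other libraries was 16 fragments.

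**Figure D1:**
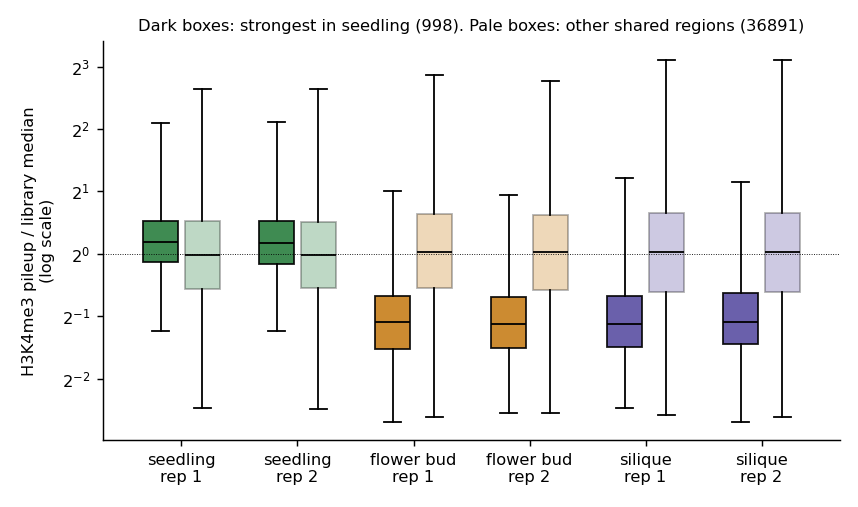
H3K4me3 pileup divided by the library median (log scale) in each of the 6 libraries; boxes give the median and quartiles and whiskers the lowest and highest region. Members (dark) sat at medians of 1.14 and 1.13 in seedling and between 0.457 and 0.471 in the 4 other libraries, while the other 36891 shared regions (pale) centred near 1 in all 6.

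Most members were close to the line that admitted them. Of the 998, 707 (70.8%) had a ratio from 1.5 to 2, 264 (26.5%) from 2 to 3, and 27 (2.71%) of 3 or more, with a median of 1.76. The 3 members nearest the limit all had a ratio of 1.5. One of them, on sequence 3 from 1483227 to 1483860, had seedling pileups of 81 and 108, flower bud pileups of 62 and 68 and silique pileups of 95 and 72. Just outside were regions on sequence 6 from 22123012 to 22123583 and sequence 7 from 4345023 to 4345653, both at 1.4998, and on sequence 13 from 64844724 to 64845917 at 1.499. There was no gap in the values at the limit. Both seedling values exceeded all 4 others at 6726 shared regions (17.8%), against 17% for flower bud and 23.6% for silique, so members are the upper end of a wider distribution.

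**Figure D2:**
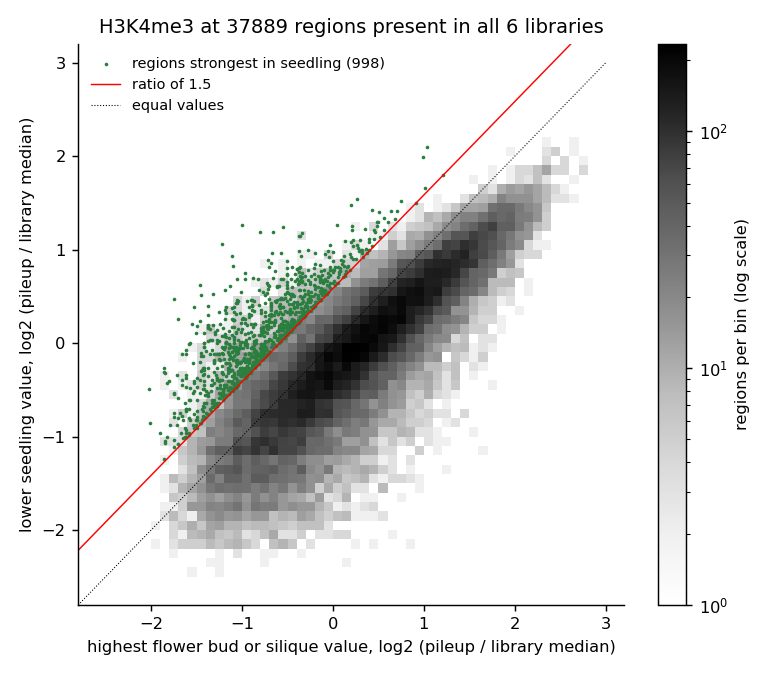
Each shared region by its highest flower bud or silique value (x axis) and its lower seedling value (y axis), both as log2 of pileup over library median, with grey shading for the number of regions per bin on a log scale. The 998 members (green) lie above the red line of ratio 1.5, most of them left of 0 on the x axis, where flower bud and silique are below their library medians.

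The widest contrast, a ratio of 4.85, was on sequence 14 from 18410510 to 18412191. These 1682 bp had seedling pileups of 181 and 210, flower bud pileups of 35 and 45 and silique pileups of 29 and 28. The second, on sequence 9 from 6567010 to 6568274, had seedling pileups of 198 and 242, flower bud pileups of 33 and 40 and silique pileups of 59 and 52. Both were above 2 library medians in each seedling library and at or under 0.5 in each of the others. The third, on sequence 3 from 12259582 to 12260541, had seedling pileups of 108 and 151, flower bud pileups of 31 and 23 and silique pileups of 30 and 24. Next came sequence 7 from 9896669 to 9898362, with seedling pileups of 120 and 181, flower bud pileups of 24 and 38 and silique pileups of 33 and 25. In these the seedling values stood at 1.79 library medians or lower, and all flower bud and silique values at 0.362 or lower.

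Of the 12 regions with the highest ratio, from 4.85 down to 3.59, 11 had seedling values between 1.20 and 2.54 library medians and flower bud and silique values between 0.171 and 0.571. In the last, on sequence 9 from 41904357 to 41905864, silique replicate 2 reached 0.635. The 2 seedling replicates of each lay closer to each other than to any other library, which the choice by ratio favours. A pair of these 12 lay on sequence 10 from 16342774 to 16343709, with 120 and 144 fragments in seedling and 21 to 38 elsewhere, and from 18081966 to 18082889, with 103 and 132 in seedling and 18 to 39 elsewhere. The others lay on sequence 7 from 16687842, sequence 11 from 47722021, sequence 12 from 52220225, sequence 13 from 9350745 and sequence 3 from 23443775.

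**Figure D3:**
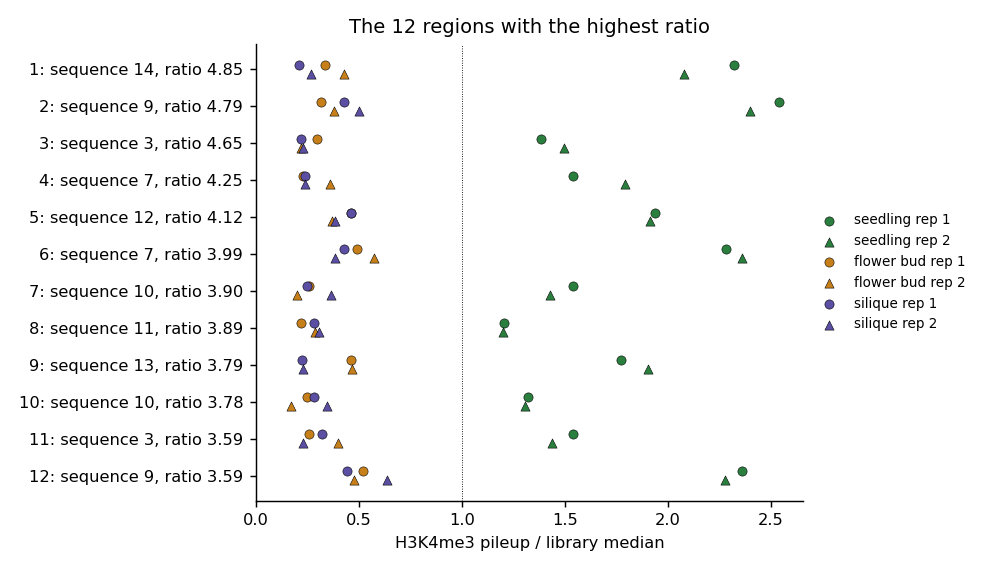
H3K4me3 pileup over library median in each of the 6 libraries for the 12 regions with the highest ratio (circles, replicate 1; triangles, replicate 2). The seedling values (green) all lie right of 1, and the flower bud and silique values all lie left of it, at 0.635 or lower.

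A few members were strong H3K4me3 regions. The highest in seedling was also among the widest, with 3267 bp on sequence 16 from 48825091 to 48828357. It had seedling pileups of 334 and 439, flower bud pileups of 93 and 88 and silique pileups of 207 and 213. The seedling values are 4.28 and 4.35 library medians. Silique lay between the other tissues there, and flower bud was lowest. The region on sequence 3 from 1485363 to 1486765 had seedling pileups of 316 and 400, flower bud pileups of 206 and 202 and silique pileups of 191 and 123. It follows the member at the limit on the same sequence. The third, on sequence 12 from 20885964 to 20887812, had seedling pileups of 288 and 351, silique pileups of 319 and 230 and flower bud pileups of 44 and 41. It passed the rule with a ratio of 1.503, with silique as the highest other tissue.

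As a group, members were as often lower in flower bud as in silique. Both silique values exceeded both flower bud values at 311 members (31.2%), against 35.6% of all shared regions, and the reverse held at 315 members (31.6%), against 31.9%. At the other 372 (37.3%) the replicates of the tissues overlapped. These shares lie near the background, and the order of these tissues is not a result about the members. With 2 libraries against 2, no exact permutation test over libraries could go below 0.333. Single members nevertheless parted the tissues widely. After the region of sequence 12, the highest excess of silique was on sequence 10 from 13564386 to 13566554, with scaled values of 1.73 and 1.94 in seedling, 0.688 and 0.760 in silique and 0.183 and 0.171 in flower bud. The third was on sequence 9 from 36540846 to 36542667, with scaled values of 1.64 and 1.77 in seedling, 0.804 and 0.808 in silique and 0.288 and 0.276 in flower bud. In both, flower bud was lowest and silique intermediate.

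The opposite order was widest on sequence 18 from 27079647 to 27080305, with seedling pileups of 152 and 198, flower bud pileups of 135 and 124 and silique pileups of 33 and 34. It was followed by sequence 14 from 65513919 to 65514949, with 151 and 189, 119 and 125, and 36 and 38 in the same order of tissues. Sequence 14 from 57935309 to 57936755 had 154 and 215, 95 and 101, and 43 and 34. In these both silique libraries stood well under both flower bud libraries.

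The same rule applied to the other tissues gave 438 regions strongest in flower bud (1.16%) and 458 strongest in silique (1.21%). The order of these numbers depended on the scaling. With pileups divided by the fragments of the library in place of its median, seedling had 671, flower bud 946 and silique 308. That scaling moved the median of all shared regions by -0.12 (log2, seedling over the others). With quantile normalization the numbers were 1040, 398 and 452. Shared regions were parted into 10 equal bands by their median scaled value over the 6 libraries. That median comes from the values that chose the sets. The rule requires low values in the other tissues, so the place of a set in the bands is a description of the choice. Of the members, 88.2% lay in the lowest 4 bands, against 66.2% of the flower bud set and 57.4% of the silique set. The share of regions meeting the rule fell from 10.5% in the lowest band (396 of 3789) to 0.0264% in the highest (1 of 3789). With quantile normalization, which gives all libraries the same range, the 3 sets chosen anew were alike in this respect, at 73.1%, 74.9% and 71.2%. The range of median-scaled values was narrower in seedling. The highest shared region stood at 6.24 and 6.26 there, against 7.28 and 6.84 for flower bud and 8.61 and 8.65 for silique. The part of this range in the difference between the sets was not tested.

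H3K27me3 was not used to choose the members, and it was found at them more often than at other shared H3K4me3 regions in every library of that mark. A peak of H3K27me3 overlapped 42 and 35 of the 998 members in the seedling libraries (4.21% and 3.51%), 114 and 114 in flower bud (11.4% each), and 95 and 56 in silique (9.52% and 5.61%). At the other 36891 shared regions the shares were 1.26% and 1.09% for seedling, 2.12% and 2.31% for flower bud and 1.65% and 0.786% for silique. Over all shared regions they were 1.33%, 1.15%, 2.36%, 2.55%, 1.85% and 0.913% in the same order of libraries. The mean share was 7.62 ± 3.61% at members and 1.53 ± 0.598% at the others (SD, n = 6 libraries), a difference of 6.08 ± 3.09 percentage points, higher in 6 of 6 libraries. A two-sided exact sign-flip permutation over the 6 libraries gave p = 0.0312, the smallest that 64 arrangements allow, and 0.0625 after adjustment over the 2 tests made. This p measures spread between libraries, not between regions. The libraries are 2 for each of 3 tissues and may be technical replicates, so they may not be 6 independent units in either test.

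The excess of H3K27me3 at these regions was smallest in the tissue where their H3K4me3 was highest. Members exceeded the other shared regions by 2.95 and 2.42 points in the seedling libraries, 9.31 and 9.12 in those of flower bud and 7.87 and 4.83 in those of silique. The mean was 2.69 points in seedling and 7.78 in the 4 other libraries, a difference of -5.09 points. Both seedling values were below all others, and the two-sided exact permutation p was 0.0667, the smallest possible with 15 arrangements, so this design could not pass 0.05 (adjusted p = 0.0667). Flower bud libraries of this mark were the deepest, with 11513204 and 10929797 fragments. Silique replicate 2 was shallower than either seedling library, with 2654588 fragments against 3647059 and 3479885, and overlapped more members. At the other shared regions its share was lower than theirs, at 0.786% against 1.26% and 1.09%. The part of depth in the difference between tissues was not tested. As odds against the other shared regions, the ratio was 3.49 and 3.35 for seedling, 5.98 and 5.48 for flower bud and 6.31 and 7.55 for silique. With the 13579 strongest H3K27me3 peaks of each library, the shares of members were 2.71% and 2.40% for seedling, 6.71% and 7.31% for flower bud and 6.41% and 5.61% for silique. At the other shared regions they were then 0.810% and 0.751%, 1.15% and 1.26%, and 1.05% and 0.786% in the same order.

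**Figure D4:**
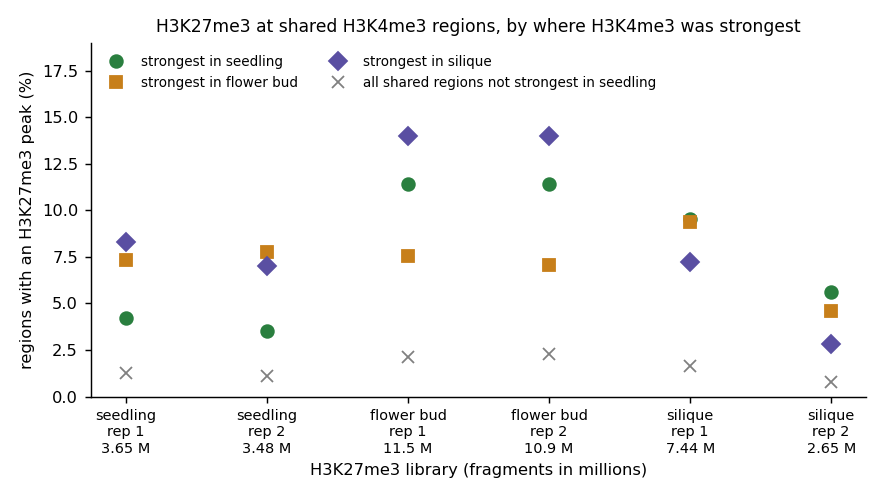
Percent of H3K4me3 regions overlapped by an H3K27me3 peak in each of the 6 H3K27me3 libraries, with fragments per library under each name; symbols part the regions by the tissue of highest H3K4me3. Regions strongest in seedling (green circles) lie at 4.21% and 3.51% in seedling and at 5.61% to 11.4% elsewhere, and regions strongest in silique (violet) are the lowest of the 3 sets in both silique libraries.

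The sets strongest in another tissue had a different profile over the same libraries. Regions strongest in flower bud carried H3K27me3 at 7.31% and 7.76% in the seedling libraries, 7.53% and 7.08% in those of flower bud and 9.36% and 4.57% in those of silique. Regions strongest in silique carried it at 8.30% and 6.99% in seedling, 14.0% in each flower bud library, and 7.21% and 2.84% in silique. The seedling libraries were thus the ones in which members had the lowest share of the 3 sets, and the silique libraries those in which the silique set did. In the flower bud libraries the flower bud set was lowest. These sets were chosen from the same H3K4me3 libraries by the same rule, and no test was made between them.

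Counted region by region, H3K27me3 called in another tissue but not seedling was more frequent at members than over all shared regions. At 63 members (6.31%) both flower bud libraries and neither seedling library had a peak, against 1.03% of all shared regions, and no member had the reverse, against 0.1%. At 19 members (1.90%) both silique libraries and neither seedling library had one, against 0.201%, and 1 member had the reverse, against 0.143%. Between flower bud and seedling, the same direction prevailed over all shared regions, at 389 regions against 38 with the reverse. For silique and seedling the numbers were 76 and 54. The reverse was rare over all shared regions as well, so its low counts at members do not set them apart. Between flower bud and silique, 25 members (2.51%) had it in both flower bud libraries and neither silique library, against 0.662%, and 3 (0.301%) had the reverse, against 0.0501%. Depth was greatest in flower bud. With the 13579 strongest peaks of each list, 35 members (3.51%) had H3K27me3 in flower bud and not in seedling, against 0.486% of all shared regions, and 26 (2.61%) in silique and not in seedling, against 0.277%. Without silique replicate 2 the count for silique and not seedling was 53 (5.31%), against 0.710%. Without silique replicate 1 it stayed at 1.90%. At 16 members (1.60%) the peak was in all 4 flower bud and silique libraries and neither seedling library, against 0.150% of all shared regions. At most members no H3K27me3 peak was called, and 136 (13.6%) had a peak in any of the 6 libraries, against 3.03%. The sets strongest in another tissue were also above the background. H3K27me3 in any library was found at 12.6% of regions strongest in flower bud and 15.3% of those strongest in silique, and H3K27me3 in flower bud and not in seedling at 1.14% and 4.59%.

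Among members with H3K27me3 in flower bud and not in seedling, the 3 with the highest ratio show the pattern. On sequence 9 from 41904357 to 41905864 H3K4me3 pileups were 184 and 230 in seedling, 54 and 50 in flower bud, 61 and 66 in silique. H3K27me3 had no peak there in seedling, pileups of 184 and 231 for flower bud and 106 and 26 for silique. Peaks of H3K27me3 covered 100% of the region in both flower bud libraries and in silique replicate 1, and 66.8% in silique replicate 2. On sequence 12 from 52220225 to 52222067, where H3K4me3 pileups were 151 and 193 in seedling and 39 to 64 elsewhere, H3K27me3 had no peak in seedling, pileups of 79 and 88 for flower bud and 63 and 16 for silique. It covered 38.4% to 57.7% of the region. On sequence 11 from 33682895 to 33683771 the mark was weaker and had a peak in the flower bud libraries alone, with pileups of 31 and 30. The member with the highest seedling H3K4me3, on sequence 16 from 48825091, had H3K27me3 pileups of 75 and 104 for flower bud and 56 and 16 for silique over 21.9% to 29.1% of its width, and none called in seedling.

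Both marks were called in all 6 libraries at 31 members (3.11%), against 0.628% of all shared regions, and here the level of H3K27me3 could be compared. Levels were divided by the library's median over the 9625 H3K27me3 regions with a peak in all 6 libraries of that mark. These medians were 32 and 27 fragments for seedling, 96 and 109 for flower bud and 63 and 21 for silique. The part of depth in the levels was not tested. At the 31 members the median level was 0.813 and 0.815 for seedling, 1.51 and 1.60 for flower bud and 1.49 and 1.29 for silique. At the other 207 shared regions with H3K27me3 throughout it was 0.938 and 0.926, 1.01 and 1.07, and 0.952 and 1.00. Both seedling values lay below all 4 others at 23 of the 31 members (74.2%), against 21.7% of the other 207 and 28.6% of all 238 regions. They lay above all 4 others at no member, against 13.5% of the other 207 and 11.8% of all 238. Of the 3 with the highest ratio, that on sequence 1 from 25293412 to 25294680 had H3K4me3 of 98 and 141 fragments in seedling and 30 to 58 elsewhere. Its H3K27me3 level was 0.844 and 0.815 for seedling, 1.86 and 1.98 for flower bud and 1.56 and 1.62 for silique. The region on sequence 11 from 883644 to 884654 had 0.813 and 1.00, 1.75 and 1.79, and 1.71 and 1.52. On sequence 7 from 21051820 to 21053828 the levels were 1.53 and 1.56, 1.76 and 1.98, and 2.22 and 2.29. Seedling was again lowest there, but closer to flower bud than in the regions on sequences 1 and 11.

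The region on sequence 12 from 20885964 had a different level of both marks in each of the 3 tissues. Its H3K4me3 stood at 3.69 and 3.48 library medians in seedling, 2.31 and 2.21 in silique, and 0.423 and 0.390 in flower bud. Its H3K27me3 level ran the other way, at 0.813 and 0.556 in seedling, 1.37 and 1.76 in silique, and 2.09 and 2.11 in flower bud. The mark covered 23.1% and 21.6% of the region in seedling, 58.1% and 40.7% in silique, and 81.9% and 85.2% in flower bud. In neither mark did the libraries of different tissues overlap.

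Both libraries of a tissue had H3K27me3 at 33 members (3.31%) in seedling, against 1.02% of all shared regions, at 105 (10.5%) in flower bud, against 2.23%, and at 56 (5.61%) in silique, against 0.911%. Among members, the shares in flower bud and silique were higher where the ratio was higher. In flower bud they were 1.37% of regions with a ratio from 0.75 to 1, 5.42% of the 1328 regions next below the limit of 1.5, 8.35% from 1.5 to 2, 14.8% from 2 to 3, and 25.9% (7 of 27) at 3 or more. In silique, for the same bins, the shares were 0.543%, 1.88%, 4.38%, 7.95% and 14.8% (4 of 27). In seedling they were 0.529%, 1.28%, 2.83%, 4.55% and 3.70% (1 of 27). Regions with a ratio under 0.5, where the lower seedling value was far below at least 1 other library, also carried H3K27me3 often, at 5.28% in flower bud and 4.12% in seedling. Of the 12 regions with the highest ratio, 2 had the mark in both flower bud and both silique libraries, 1 had a peak of 19 fragments in silique replicate 1 alone, and 9 had none.

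Members were also compared with other regions in the same band of median scaled H3K4me3 over the 6 libraries. That median comes from the libraries that chose the members, so it does not match the 2 groups within any tissue. The part of weak H3K4me3 in the excess of H3K27me3 was not tested. In the lowest of the 10 bands both flower bud libraries had H3K27me3 at 41 of 396 members (10.4%) and at 5.45% of the others. In the second band the shares were 9.68% (21 of 217) and 3.58%, in the third 13.5% (23 of 170) and 3.04%, and in the fourth 10.3% (10 of 97) and 1.90%. In seedling the shares of members and others were 4.04% and 2.86% in the lowest band, 2.30% and 2.18% in the second, 4.12% and 1.38% in the third, and 3.09% and 0.894% in the fourth. The share at other regions was lower in each stronger band of these 4. Members exceeded that share in all 4 in both tissues, by little in the second band of seedling. In the fifth band, with 52 members, the shares of members and others were 5.77% and 1.61% in flower bud and 0% and 0.910% in seedling. Stronger bands held 30 members or fewer each, and the differences there went both ways in both tissues.

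The difference in H3K27me3 was local. At the centre of members 9.32% lay under H3K27me3 in both flower bud libraries, against 1.62% of the other shared regions. At 0.5 kb from the centre the shares were 4.56% and 0.961%, at 2 kb 3.31% and 2.41%, and at 5 kb 4.41% and 4.22%. In silique the share at the centre was 4.71% against 0.580%, and in seedling 2.40% against 0.724%. Where a peak was present it covered a median of 76.0% and 81.1% of the member in flower bud, 71.1% and 62.1% in silique, and 58.7% and 47.2% in seedling. At the other shared regions the medians were 68.9% and 73.7%, 67.3% and 54.6%, and 55.6% and 52.2%, in the same order of tissues.

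**Figure D5:**
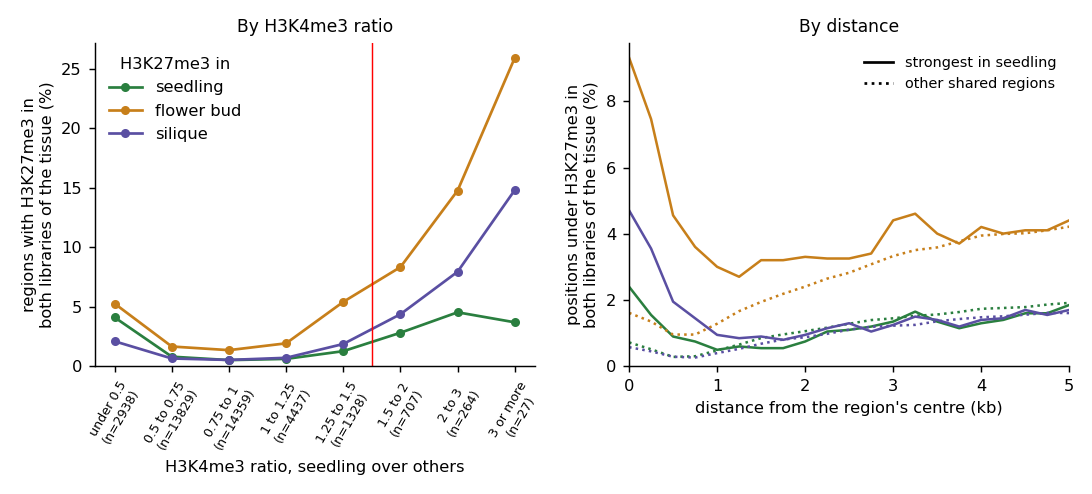
Left, percent of shared H3K4me3 regions with an H3K27me3 peak in both libraries of a tissue, by the H3K4me3 ratio (members right of the red line; n under each bin). Right, percent of positions under H3K27me3 in both libraries at a given distance from the region's centre, averaged over both sides, for members (solid) and other shared regions (dotted); in flower bud it falls from 9.32% at the centre to 4.56% at 0.5 kb.

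Members were spread over the genome and mostly single. The 19 long sequences were taken, from their order, as the 10 chromosomes of the A and the 9 of the C subgenome, since their extents tracked those of the Da-Ae assembly (Pearson r = 0.994, Spearman rho = 0.991 over 19 sequences, as a description). Of the members on them, 469 lay on sequences 1 to 10 and 526 on 11 to 19, so that 47.1% were on the A subgenome, against 46.5% of all shared regions. Single sequences ranged from 2.15% of shared regions (sequence 16, 38 of 1771) to 3.29% (sequence 7, 56 of 1700). Another 3 members lay on short sequences. Neither subgenome stood out from the background of 2.63%.

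Of the 1992 places next to a member along a sequence, 86 (4.32%) held another member, against 2.63% of all regions. This share was 2.84% when pileups were scaled by library fragments, where the share of members itself was lower. The members next to each other formed 43 pairs with a median gap of 10602 bp, and 1 pair lay less than 1 kb apart. Neighbours that were not members had a median log2 quotient of seedling over the other tissues of -0.05 (1874 regions). This median was -0.06 for all shared regions and 1.18 for members. Neighbours that met the rule are left out of the first value, so it does not show whether neighbours share the seedling excess. Runs of 3 members occurred 2 times. On sequence 6 they began at 8890945, 8903138 and 8921656, with ratios of 1.51, 2.99 and 2.45, and the last of these also had H3K27me3 in all 6 libraries. On sequence 19 they began at 488012, 491945 and 498358, with ratios of 1.60, 1.63 and 1.56 and no H3K27me3 peak.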

How the data were processed

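Per the file headers, MACS 2.2.7.1 called narrow peaks in each library by itself from read pairs, with q at 1e-05, 1 merged control for all and 1 fragment kept per duplicate position. BWA, SAMtools and GATK are also named in the submitters' processing notes, and the genome build is not given in the sources used here. The deposited pileup is a signal: how many fragments cover the summit. The deposited p-value and q-value are on a −log10 scale, and the deposited fold enrichment is the authors' ratio of summit pileup to local control. The deposited start, end and summit are positions.

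Here peaks were merged at 1 bp of overlap. H3K27me3 shares were compared over libraries by exact permutation, with Benjamini-Hochberg adjustment over 2 tests. Odds ratios had 0.5 added to each cell. Members, lists and tests were chosen with earlier results of these data known. Named regions are the 12 highest ratios and, of several other orders (nearest the limit, widest, longest run, H3K27me3 patterns, strongest seedling value, flower bud against silique), up to 3 each, or all members of the longest runs. The code was checked on simulated data. Alternatives were other scalings, fold enrichment, other ratios, stricter peaks and overlaps, equal peak numbers and leaving out each library. Calculations used Python 3.11.15, numpy 2.4.6 and pandas 2.3.3.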

Additional observations from a re-analysis of the deposited data

How the results depend on the processing

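No paired analysis was possible because the labels give the libraries no shared replicate numbers. The number of regions strongest in seedling was 2326 at the looser of 2 other ratios tried, 291 at a ratio of 2 and 631 where peaks of each library had to cover 50% of the region. It was 1200 to 1374 with 1 H3K4me3 library left out, when its tissue is judged on 1 library. Members with flower bud above silique made up 36.8% by library fragments, and those with silique above flower bud 35.2% with quantile normalization and 26.6% at 50% coverage. With 1 library left out the shares ran from 31.5% to 44.0% and from 30.2% to 43.6%. The upper ends came from leaving out a flower bud or silique library, when 1 value of that tissue is compared with 2 of the other. That is a looser condition. Places next to a member that held a member were 2.84% by library fragments, where 671 of the 37889 shared regions were members. They were 8.14% at the looser ratio (2326 members) and 2.06% at a ratio of 2 (291 members). At 50% coverage they were 3.33%, and with 1 library left out 4.81% to 5.93%. The share of members among all shared regions changes with the setting, so these shares cannot be compared with each other or with 2.63%. The share on sequences 1 to 10 was 50.5% at a ratio of 2. H3K27me3 in flower bud and not in seedling was found at 4.73% of members at the looser ratio, 9.28% at a ratio of 2 and 3.51% with equal peak numbers. In silique and not in seedling it was 3.09% at a ratio of 2, and 1.90% to 5.31% with 1 H3K27me3 library left out. In seedling and not in silique it was 0% with equal peak numbers and with 50% coverage. Apart from these changes of definition, the cause of the shifts was not tested.

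The difference in H3K27me3 share between members and other shared regions stayed positive under all alternatives, from 3.77 points (looser ratio) to 9.43 (ratio of 2), and was 5.14 among the lower 50% of regions by H3K4me3, a setting added with the data in view. The seedling excess stayed below that of the other tissues, from -3.52 to -7.72 points. As log2 odds ratios the differences were 2.36 and -0.88. With 1 library left out these were 5.44 to 6.81 and -6.08 to -4.58 points, and the exact permutation could not reach 0.05 with 5 libraries. A pileup of 50 or more in both seedling libraries, also chosen afterwards, left 953 members. Of 353 ratios of named members under other settings, 327 stayed at or above 1.5 and the others fell below it, and the lowest ratio of any named region was 1.27. Depth limits the H3K27me3 counts: the absence of a peak shows only that none was called.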

Other observations

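Peaks of members were wider in seedling and narrower elsewhere. Seedling medians were 887 and 954.5 bp, flower bud medians 612 and 608.5 bp and silique medians 699 and 593 bp, against 680, 725, 763, 792, 900 and 738 bp at the other shared regions in the same order of libraries. Width comes from the same peaks as the pileup and is given as a description. The merged regions hardly differed, with a median of 977.5 bp for members and 943 bp for the others. The widest members were 3448 bp on sequence 7 from 28900477 to 28903924, 3267 bp on sequence 16, and 2889 bp on sequence 7 from 20311554 to 20314442. In the first, H3K4me3 pileups were 140 and 161 for seedling, 42 and 51 for flower bud and 127 and 96 for silique, with no H3K27me3 peak.

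Summits, whose position the rule did not use, lay further apart at members than at other shared regions in every pair of libraries. Between the seedling libraries the summit moved by a median of 36 bp at members and 32 bp at the other shared regions. Between seedling and the other tissues the medians were 45 to 53 bp at members and 34 to 41 bp at the others. A summit over 200 bp away was found at 39 members (3.91%) between the seedling libraries, and at 78 to 100 members (7.82% to 10.02%) between a seedling library and another. At the other shared regions these shares were 2.67% and 3.196% to 4.24%. It was found at 63 members (6.31%) between the flower bud libraries and 67 (6.71%) between the silique libraries, against 1.76% and 2.21% at the others. Members were weak in both tissues, and the part of low pileup in these distances was not tested.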
